A study of Mus musculus with 12 samples.

Results

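The alanine transfer RNAs (tRNAs) with the anticodons CGC and TGC were followed base by base in the blood-forming compartment of old and young wild-type mice, labelled as hematopoietic stem and progenitor cells (the cells that give rise to all blood lineages). All bases of the entries named tRNA-Ala-CGC and tRNA-Ala-TGC were taken, and entries with identical values in every library were counted once. This gave 691 bases in 14 distinct tRNAs (7 of each anticodon, from 21 entries), out of 14012 bases in 213 distinct tRNAs in all. The 4 groups were old cells with CMC, old cells with BEU buffer alone, young cells with CMC and young cells with BEU alone, with 3 libraries each. All RNA was demethylated with wild-type and mutant AlkB before the CMC step. CMC is a carbodiimide whose adduct on pseudouridine survives the alkaline wash and halts reverse transcriptase. The stop rate is the count of stop reads credited to a base as a percent of its coverage. The rise is the CMC rate minus the BEU rate of the same age and replicate number, in percentage points. The ages in months, the number of animals and whether libraries came from separate animals are not given in the labels, so a p-value here speaks only of how far the libraries scatter, and that scatter may be technical.

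Pseudouridine is an isomer of uridine made in place by pseudouridine synthases. In tRNA, PUS3 is known to modify positions 38 and 39 next to the anticodon, TRUB1 and PUS10 the T-loop position 55, and PUS10 also position 54. The series title names PUS10 as induced by aging. The D loop is known for dihydrouridine, which dihydrouridine synthases make, among others at positions 16 and 20. Positions follow the usual tRNA numbering, in which these tRNAs lack position 17, so that a base 3′ of it is numbered 1 higher than its count from the 5′ end. The exception is tRNA-Ala-CGC-7-1, in which T60 is also base 60 by count.

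The RefSeq annotation of GRCm38.p6, the assembly also called mm10, holds 9 alanine tRNA genes with the anticodon CGC and 11 with TGC. Of these 20 genes, 12 lie on chromosome X between 136357602 and 136590436, 3 on chromosome 13, 2 on chromosome 5 and 1 each on chromosomes 2, 4 and 11. The entries could not be paired with these genes one by one.

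The 4 tRNAs with all 74 bases carried most of the results. Their sequences, read from the deposited rows with T for U, are shown because the isodecoders differ at few bases, and capitals mark the T bases at which CMC raised stops in both ages.
tRNA-Ala-CGC-1-1: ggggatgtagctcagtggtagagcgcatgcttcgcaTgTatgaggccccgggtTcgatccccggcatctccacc
tRNA-Ala-TGC-2-1: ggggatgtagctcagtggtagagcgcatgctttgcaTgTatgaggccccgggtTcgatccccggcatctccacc
tRNA-Ala-CGC-2-1: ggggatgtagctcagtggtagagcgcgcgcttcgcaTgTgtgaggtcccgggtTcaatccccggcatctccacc
tRNA-Ala-TGC-4-1: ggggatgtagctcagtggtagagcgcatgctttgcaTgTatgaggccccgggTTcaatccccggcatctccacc
The capitals fall on positions 38, 40 and 55 in all 4 and on position 54 in tRNA-Ala-TGC-4-1.

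tRNA-Ala-CGC-1-1 and tRNA-Ala-TGC-2-1 differ by the single anticodon substitution C34T, where the base of the CGC tRNA stands first. tRNA-Ala-TGC-2-1 and tRNA-Ala-TGC-4-1 differ only by G57A, with the base of TGC-2-1 first. From tRNA-Ala-CGC-2-1 to tRNA-Ala-TGC-4-1 there are 5 substitutions, G28A, C29T, C34T, G41A and T47C. Reverse transcription starts at the 3′ end, so a read that stops 3′ of every base that differs cannot be assigned to 1 of the tRNAs. The tables count such reads in each tRNA. Over the 45 pairs of numbered tRNAs with values to compare, 1897 of 1903 stop-read values 3′ of the last difference were equal (99.7%). These pairs did not include tRNA-Ala-CGC-7-1. For tRNA-Ala-CGC-1-1 and tRNA-Ala-TGC-2-1 the stop reads at T38 and at T40 were equal in 10 of the 10 libraries in which both were below the coverage ceiling described next. Position 34 itself had the same stop reads in both tRNAs in the CMC libraries (2, 6 and 12 in old and 8, 33 and 6 in young). Stop reads credited to this base thus did not tell C34 from T34. At T20, 5′ of the difference at position 34, the stop reads of both tRNAs were equal in 0 of 12. tRNA-Ala-CGC-2-1 and tRNA-Ala-TGC-4-1 had equal stop reads in 10 of 10 such libraries at T54 and T55, and in 0 of 12 at T38 and T40. At the shared positions the rates of a pair differ only in the reads that passed the base, and each pair is 1 set of stops and not 2 measurements.

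**Figure D1:**
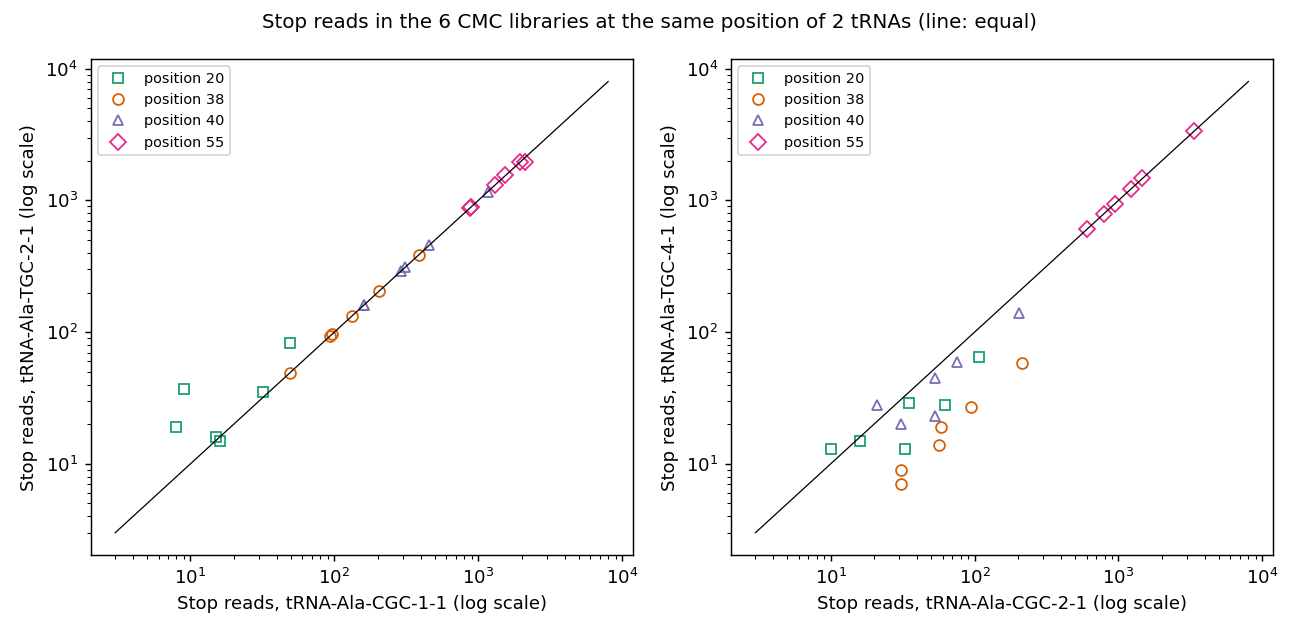
Stop reads at positions 20, 38, 40 and 55 in the 6 CMC libraries, in tRNA-Ala-TGC-2-1 against tRNA-Ala-CGC-1-1 (left) and in tRNA-Ala-TGC-4-1 against tRNA-Ala-CGC-2-1 (right), on log scales with a line of equality. Points 3′ of the last base that differs lie on the line. Those 5′ of it are not equal, though some at position 20 lie close to the line. The single point just off the line at position 55 on the left is young CMC replicate 2, which was at the coverage ceiling.

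The summed highest coverage of all 213 tRNAs was 201980 to 767650 reads in the CMC libraries and 533736 to 1061426 in the BEU libraries. No base exceeded 8015 reads. At T55 of tRNA-Ala-CGC-1-1 the BEU stop rate was 0.226, 0.227 and 0.176% in the 3 BEU libraries at this ceiling, and 3.10 to 3.72% in the other 3, so rates at the ceiling are not comparable with those below it. Among the alanine tRNAs described here at most 4 reached 7500 reads in a library, all of them full-length ones. tRNA-Ala-TGC-2-1 did so in 6 libraries, tRNA-Ala-CGC-1-1 in 5, and tRNA-Ala-CGC-2-1 and tRNA-Ala-TGC-4-1 in 3 each. Of the CMC libraries only young replicate 2 held members at 7500 reads. Reads carry no molecular identifiers, so counting error understates the spread.

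Of the 691 bases, 465 in 12 of the 14 tRNAs had at least 20 reads in all 12 libraries, 100 of them T. A rise was called with an adjusted p under 0.05 in edgeR's quasi-likelihood test, a mean rise of 10 points or more and a higher CMC rate in each of the 3 pairs. In old cells 17 of the 100 T bases were called, against a background of 20.3% of the T bases of the series. In young cells 16 were called, against 18.8% in the series. The members' shares were close to these backgrounds. The called bases lay at a few positions: 4 of 4 at position 38, 4 of 4 at position 40, 1 of 5 at position 54 and 2 of 7 at position 60 in both ages, 4 of 7 in old and 5 of 7 in young at position 55, and 2 of 8 in old and 0 of 8 in young at position 59. Counting stop reads shared between tRNAs once, the called bases came from 11 sets of stops in old and 11 in young cells. At the other T positions (6, 8, 12, 29, 32, 33, 34, 47, 68 and 70) 0 of 52 bases were called, with mean rises between -1.74 and 5.59 points. They include T34, the first anticodon base of the TGC tRNAs.

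**Figure D2:**
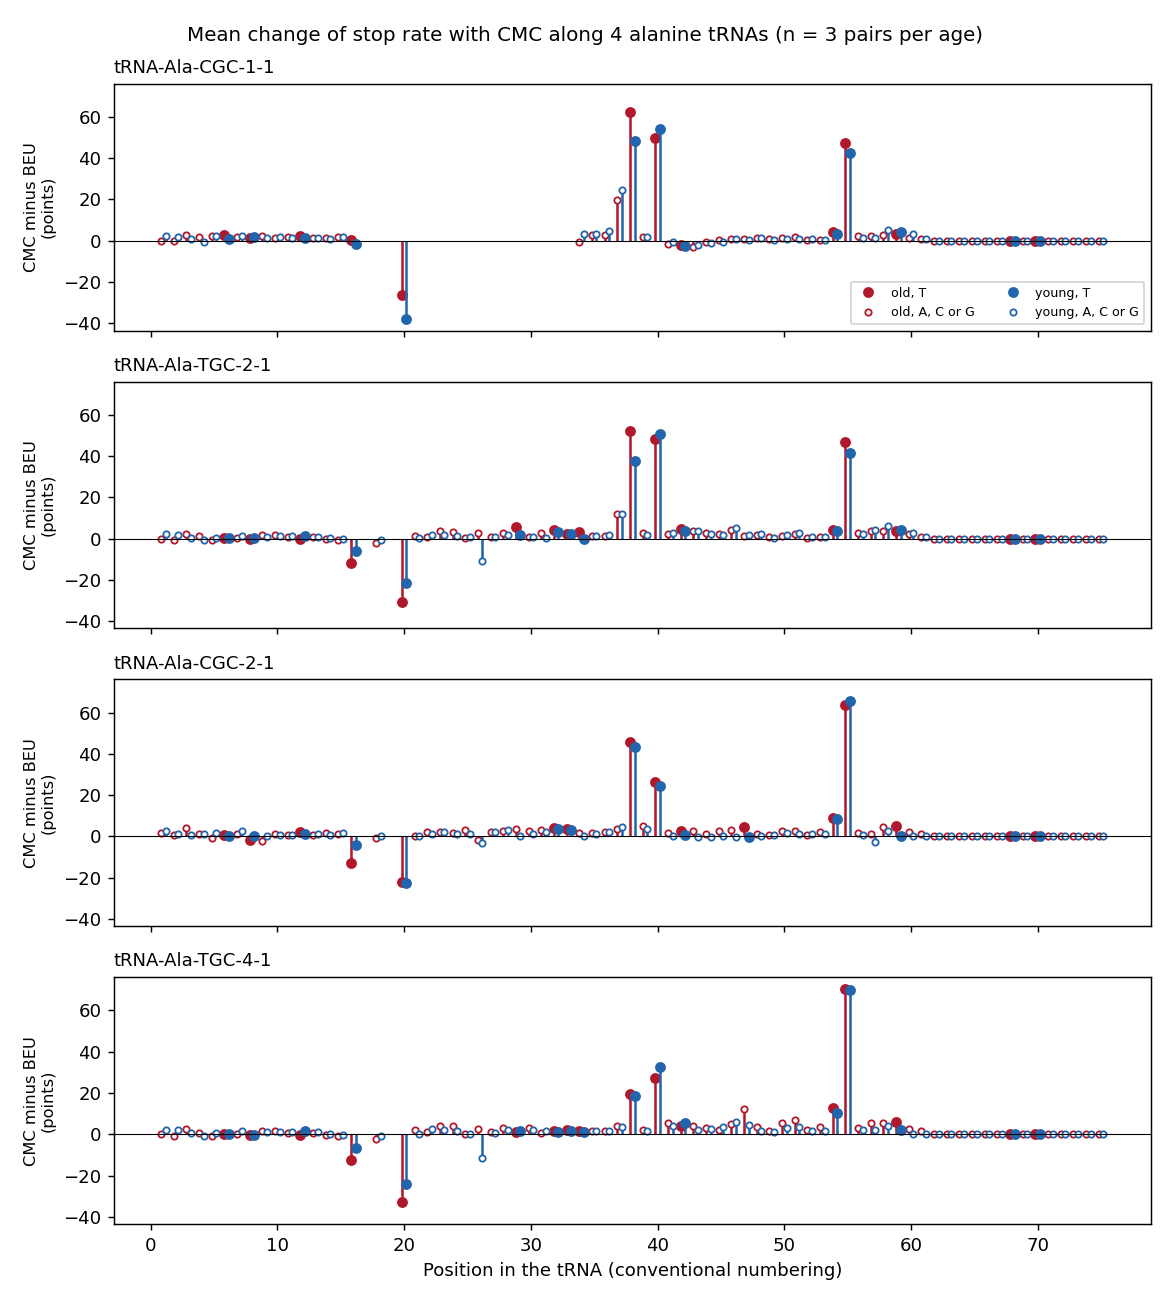
Mean change of the stop rate with CMC (CMC minus BEU, percentage points, 3 pairs per age) at every tested base of 4 alanine tRNAs, by position; filled points are T and open points A, C or G, old in red left of young in blue. The tall bars stand at positions 38, 40 and 55, and the bars below 0 at position 20, at position 16 in all but CGC-1-1 and, in young cells, at position 26 of the TGC tRNAs.

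Position 38, in the 3′ part of the anticodon loop, is a known PUS3 site. In tRNA-Ala-CGC-1-1 the T38 stop rate was 65.2, 69.1 and 60.1% in the old CMC libraries, against 1.95, 2.24 and 2.58% in the old BEU libraries. In young cells it was 48.9, 51.8 and 50.5% with CMC, against 1.98, 2.53 and 2.28% with BEU. The CMC and BEU libraries did not overlap at either age, and the rise was 62.5 ± 4.72 points in old cells and 48.2 ± 1.16 in young cells (SD, n = 3 pairs each, adjusted p = 1.82e-08 and 3.97e-08). In tRNA-Ala-TGC-2-1, with the same stop reads, T38 stopped 53, 55.8 and 50% of reads in old CMC and 37.3, 41.4 and 36.3% in young CMC libraries, and its rise was 52.2 ± 3.05 points in old and 37.5 ± 2.22 in young cells. Its BEU rates of 0.138 to 1.30% include 2 libraries at the ceiling.

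T38 was also called in the other full-length isodecoders. tRNA-Ala-CGC-2-1 had 46.0, 48.4 and 45.2% in old CMC and 42.6, 48.5 and 43.7% in young CMC libraries, and rose by 45.6 ± 1.70 points in old and 43.4 ± 2.90 in young cells. tRNA-Ala-TGC-4-1 had 19.4, 18 and 22.5% in old CMC and 22.4, 19.7 and 14.3% in young CMC libraries, and rose by 19.7 ± 2.42 and 18.4 ± 4.2 points. Its stops there rest on shallow CMC coverage, 50 to 120 reads in old and 49 to 295 in young libraries. Every CMC library of tRNA-Ala-TGC-4-1 lay below every CMC library of the other 3 tRNAs at this base.

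Position 40 lies in the 3′ strand of the anticodon stem, next to the known PUS3 position 39, which is not T in these tRNAs. In tRNA-Ala-CGC-1-1 its stop rate was 56.5, 51.1 and 54.9% in old CMC libraries, against 3.95, 4.9 and 3.75% in old BEU libraries. The young libraries had 58.6, 57.7 and 60.2% with CMC, against 5.10, 5.37 and 4.09% with BEU. The rise was 49.9 ± 3.31 points in old and 54 ± 1.91 in young cells (adjusted p = 3.94e-08 and 4.60e-08). tRNA-Ala-TGC-2-1 had the same stop reads except in old BEU replicate 1 and young BEU replicate 3, where it was at the ceiling. It rose by 48.3 ± 3.95 points in old and 50.9 ± 1.51 in young cells. The rises at T40 were smaller in tRNA-Ala-CGC-2-1, with 26.5 ± 2.92 points in old and 24.4 ± 2.80 in young cells, and in tRNA-Ala-TGC-4-1, with 27.3 ± 4.34 and 32.7 ± 2.42. tRNA-Ala-TGC-1-1, the remaining near-complete TGC tRNA, has C at position 40 and 72 bases in the tables used here, without positions 37 and 38.

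**Figure D3:**
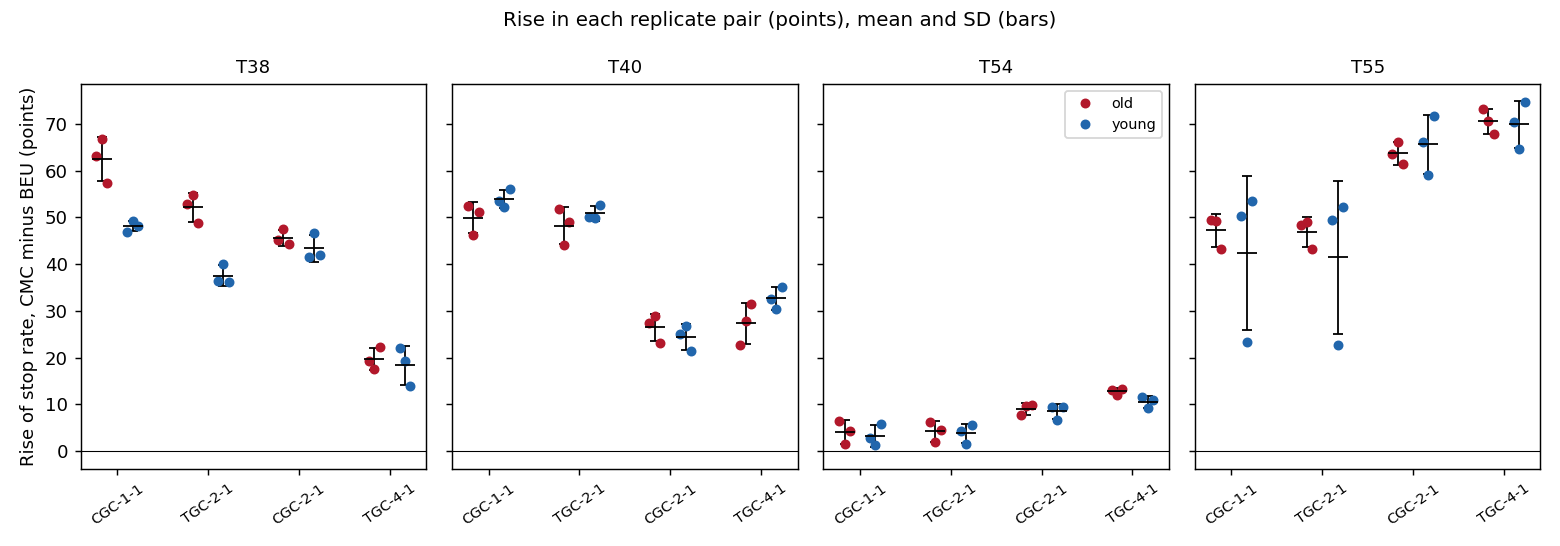
Rise of the stop rate (CMC minus BEU, percentage points) at T38, T40, T54 and T55 of 4 alanine tRNAs in each of the 3 old pairs (red) and 3 young pairs (blue), with mean and SD bars. At T38 the old pairs of CGC-1-1 and TGC-2-1 lie above their young pairs; at T55 the low young point of the same tRNAs is replicate 2, at the coverage ceiling.

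In the T loop, stops were high at T55 and low at its 5′ neighbour T54. tRNA-Ala-TGC-4-1 had T55 stop rates of 73.8, 72.7 and 70.3% in old CMC and 72.5, 67.9 and 76.8% in young CMC libraries, against at most 2.41% in old and 3.20% in young BEU libraries. It rose by 70.6 ± 2.70 points in old and 69.9 ± 4.96 in young cells (adjusted p = 9.31e-07 and 1.81e-06). tRNA-Ala-CGC-2-1 shares these stop reads except in old BEU replicate 1 and young BEU replicate 3, where tRNA-Ala-TGC-4-1 was at the ceiling. tRNA-Ala-CGC-2-1 rose by 63.7 ± 2.40 points in old and 65.6 ± 6.30 in young cells. It stayed below the ceiling at this base in all 12 libraries.

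At T55 of tRNA-Ala-CGC-1-1 the CMC rates were 49.6, 52.3 and 46.5% in old and 50.6, 27.1 and 53.6% in young libraries. The low young value is replicate 2, with 7805 reads at the ceiling. The rise was 47.3 ± 3.53 points in old and 42.4 ± 16.5 in young cells, and 51.9 in young cells without replicate 2. tRNA-Ala-TGC-2-1 had the same stops in 7 of the 7 libraries in which both tRNAs were below the ceiling. It rose by 46.9 ± 3.13 points in old and 41.4 ± 16.3 in young cells, and by 50.8 in young cells without replicate 2.

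T54 lay close to the 10-point minimum. In tRNA-Ala-TGC-4-1 it stopped 13.1, 13.3 and 14.6% of reads in old CMC and 12.9, 11.2 and 12.6% in young CMC libraries, and it rose by 12.8 ± 0.642 points in old and 10.5 ± 1.24 in young cells (adjusted p = 6.54e-04 and 0.00775). The young call was lost without young replicate 1 (adjusted p = 0.0782) and without young replicate 3 (0.0596). tRNA-Ala-CGC-2-1 had the same stop reads except in old BEU replicate 1, where tRNA-Ala-TGC-4-1 was at the ceiling. Its mean differences were 9.07 ± 1.25 points in old and 8.49 ± 1.62 in young cells, under the minimum though with adjusted p = 1.81e-06 and 5.86e-06. tRNA-Ala-CGC-1-1 had 4.07 ± 2.50 and 3.32 ± 2.36 points and tRNA-Ala-TGC-2-1 4.2 ± 2.17 and 3.83 ± 2.02 (adjusted p = 0.0686 and 0.0357), all under the minimum. T54 of tRNA-Ala-TGC-1-1 had 0.812 ± 0.685 points in old and 0.139 ± 0.736 in young cells. In the 4 full-length tRNAs T54 thus had a rate of 3.56 to 14.6% with CMC, under that of T55 in every CMC library.

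The 2 full-length members with A at position 57 had the higher T55 rises and those with G57 the lower ones. Among the alanine tRNAs with anticodon AGC, tRNA-Ala-AGC-2-1, with A57, had a mean difference of 65.5 ± 4.44 points in old and 67.1 ± 4.19 in young cells, and tRNA-Ala-AGC-3-1, with G57 and T54, one of 50.6 ± 6.45 and 53.8 ± 7.16. The split by base 57 was noticed after the values were seen and was not tested. The T-arm ends, from position 51 to the 3′ end, are shown with bases 57, 59 and 60 in capitals.
tRNA-Ala-TGC-4-1: gggttcAaTCcccggcatctccacc
tRNA-Ala-AGC-2-1: gggttcAaTCcccggcacctccacc
tRNA-Ala-TGC-2-1: gggttcGaTCcccggcatctccacc
tRNA-Ala-CGC-4-1: gggttcGaTTcccggcatctccacc
tRNA-Ala-CGC-3-1: gggttcGaCTcccggcatctccacc
The last 2 carry T60.

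**Figure D4:**
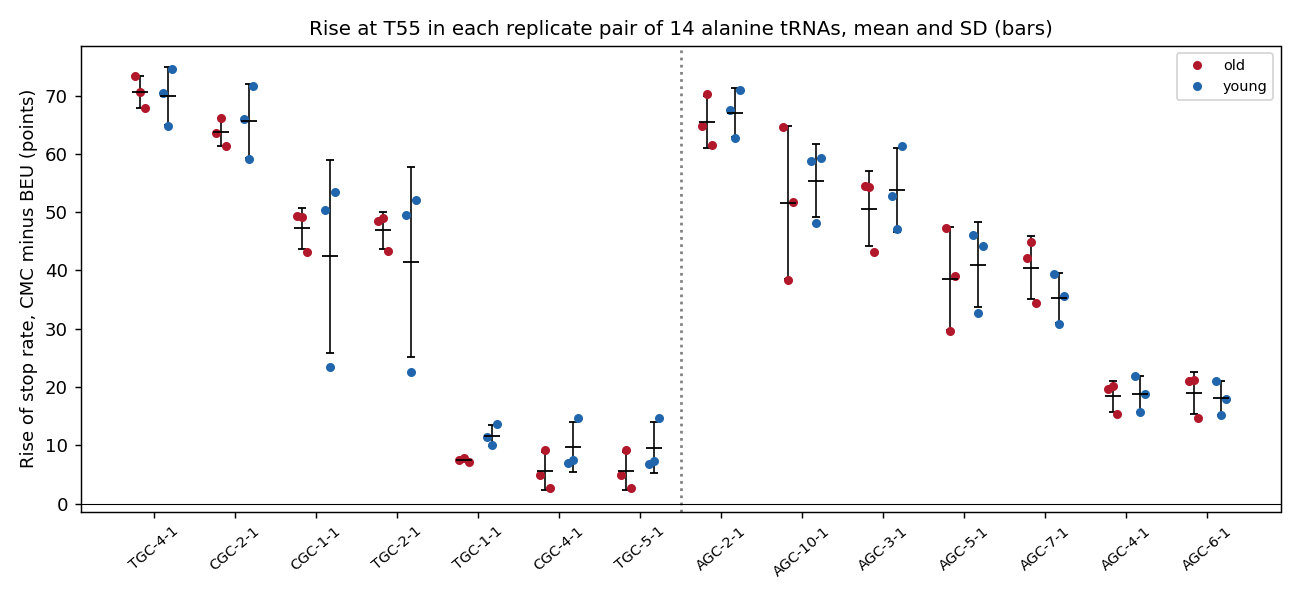
Rise of the stop rate at T55 (CMC minus BEU, percentage points) in each pair of the 7 tested CGC and TGC tRNAs (left of the dotted line) and the 7 tested AGC tRNAs (right), old in red and young in blue, with mean and SD bars. The CGC and TGC means run from above 60 points in TGC-4-1 and CGC-2-1 to under 12 in TGC-1-1, CGC-4-1 and TGC-5-1.

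The other 9 entries hold 17 to 50 bases in the tables used here and lack the anticodon region. They had at most 1439 reads in any library, against 7991 to 7999 in the full-length tRNAs. The 7 tested ones with T60 stopped at that base with or without CMC: their mean rates were 73.6 to 84.4% in old CMC, 59.9 to 81.8% in old BEU, 70.5 to 82.7% in young CMC and 56.4 to 77.9% in young BEU libraries. All 7 had the same stop reads at T60 in each library, such as 192, 98 and 291 in old CMC and 442, 275 and 247 in old BEU libraries. They are thus 1 set of stops, and their rates differ only in the reads that passed. Position 60 is the base nearest the 3′ end at which these tRNAs differ from the full-length tRNAs, though tRNA-Ala-CGC-7-1 was not compared in this way. tRNA-Ala-TGC-2-1, with C60, had a mean of 4.63% there in the old CMC libraries; each of its other groups held libraries at the ceiling at this base. The highest mean BEU rate of all tested member bases was at T60 of tRNA-Ala-TGC-8-1, which stopped 85, 82.4 and 85.8% of reads in old CMC libraries, against 76.1, 83.8 and 85.5% in old BEU libraries. Its young libraries had 81.9, 79.5 and 86.5% with CMC, against 78.5, 80.5 and 74.6% with BEU. The CMC and BEU libraries overlapped at both ages.

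tRNA-Ala-CGC-4-1 and tRNA-Ala-TGC-5-1 have no difference over the 31 bases both hold and equal stop reads at T55, T59 and T60 in 12 of 12 libraries, so they are given once, by CGC-4-1. T60 stopped 76.2, 73.1 and 71.7% of reads in old CMC libraries, against 51.1, 63.8 and 65.5% in old BEU libraries, a rise of 13.5 ± 10.1 points. In young cells it had 67.1, 67.9 and 76.7% with CMC, against 56.2, 59.8 and 53.3% with BEU, a rise of 14.2 ± 8.13 points. The adjusted p were 0.0309 and 0.0353, and the calls were lost in 7 of 15 alternatives in old and 8 of 15 in young cells. Without old replicate 1 the old rise was 7.74 points (adjusted p = 0.249), and without young replicate 3 the young rise was 9.54 points (0.281). The other tested tRNAs with T60 had the same stop reads there and were not called. Their mean differences ran from 1.18 points in tRNA-Ala-CGC-3-1 to 9.09 in tRNA-Ala-TGC-6-1 in old cells. In young cells they ran from 4.30 in tRNA-Ala-TGC-7-1 to 8.57 in tRNA-Ala-TGC-6-1. T59 of tRNA-Ala-CGC-4-1 was called in old cells only, at 39, 47.2 and 25.7% in old CMC libraries, against 18.1, 26.3 and 23.3% in old BEU libraries (rise 14.7 ± 10.7 points, adjusted p = 0.0375). This call was lost in 9 of 14 alternatives, 5 of which left out 1 pair of libraries. In young cells T59 averaged 7.48 ± 3.05 points higher with CMC (adjusted p = 0.243). The age difference at T59 was 7.24 ± 6.43 points (SE, adjusted p = 0.999). T59 of tRNA-Ala-TGC-6-1, with the same stop reads, had a mean difference of 16.4 ± 18.4 points in old cells (adjusted p = 0.105) and was not called. T55 of tRNA-Ala-CGC-4-1 had mean differences of 5.60 ± 3.26 points in old and 9.76 ± 4.28 in young cells, at 20 to 111 reads with CMC, and was not called.

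In tRNA-Ala-TGC-1-1, which carries C68 where the full-length members have T68, T55 was called in young cells only. It stopped 8.25, 9.09 and 8.11% of reads in old CMC libraries, against 0.716, 1.30 and 1.01% in old BEU libraries. The young libraries had 11.6, 11.5 and 13.9% with CMC, against 0.244, 1.47 and 0.302% with BEU. The mean differences were 7.48 ± 0.348 points in old (adjusted p = 5.06e-04, under the minimum) and 11.6 ± 1.81 in young cells (adjusted p = 2.96e-05). Its average fell short of the 10 points needed for the age test. These values were below those of every full-length member at T55.

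The shortest stretch, that of tRNA-Ala-CGC-5-1, holds 17 bases, shown because they also occur in 1 tRNA for glutamate in the tables.
tRNA-Ala-CGC-5-1: ctagtggttaggattcg
It had at most 34 reads in a library and no base reached 20 reads in all 12. tRNA-Ala-CGC-6-1, with at most 70 reads, was not tested either.

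Rises at bases other than T were rare, 2 of 365 in old and 1 of 365 in young cells, against 0.61% and 0.368% of these bases in the series. A37 of tRNA-Ala-CGC-1-1, directly 5′ of T38, stopped 40, 24.3 and 18.8% of reads in old CMC libraries, against 7.88, 8.02 and 7.99% in old BEU libraries. In young cells it had 42, 31.8 and 29% with CMC, against 8.92, 9.75 and 10.4% with BEU. The CMC libraries did not overlap the BEU libraries, and the rise was 19.7 ± 11.1 points in old and 24.6 ± 7.56 in young cells (adjusted p = 0.00726 and 0.00800). Coverage there was as low as 37 reads in old and 31 in young CMC libraries. The call was lost in old cells without replicate 2 (adjusted p = 0.0657) and in young cells without replicate 1 (0.165) or 3 (0.0587) and with limma on log odds (0.0741). A37 lies 3′ of position 34, the only base that differs from tRNA-Ala-TGC-2-1. Of the stop-read values compared 3′ of that base, 238 of 243 were equal in both tRNAs. In tRNA-Ala-TGC-2-1 no base other than T was called. The stops at A37 thus cannot be assigned to tRNA-Ala-CGC-1-1 alone. C47 of tRNA-Ala-TGC-4-1, in the variable loop, stopped 18.8, 20.0 and 15.5% of reads in old CMC libraries, against 4.61, 5.67 and 7.29% in old BEU libraries (rise 12.2 ± 3.49 points, adjusted p = 0.00783). In young cells the mean difference was 4.42 ± 4.33 points and was not called. Without old replicate 1 or 2 the adjusted p at C47 in old cells was 0.0786 or 0.0879. T47 of tRNA-Ala-CGC-2-1 had the same stop reads in the CMC libraries (36, 28 and 55 in old and 22, 140 and 19 in young). Its mean difference in old cells was 4.57 ± 2.86 points (adjusted p = 0.0546), and it was not called. The call at C47 thus depended on the reads that passed, and its stops cannot be assigned to a C rather than a T.

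At T20 of the D loop stop rates were lower with CMC. T20 was the strongest stop without CMC in each full-length tRNA. In tRNA-Ala-CGC-1-1 it had 42.1, 53.6 and 42.7% in old CMC libraries, against 71.2, 72.2 and 74.2% in old BEU libraries. The young libraries had 31.0, 30.4 and 40% with CMC, against 70.0, 73.9 and 71.7% with BEU. All 6 CMC libraries lay below all 6 BEU libraries, and the change was -26.4 ± 6.84 points in old and -38.1 ± 5.93 in young cells (adjusted p = 3.53e-04 and 2.15e-05). tRNA-Ala-TGC-2-1 changed by -30.8 ± 7.83 points in old and -21.7 ± 12.6 in young cells, tRNA-Ala-CGC-2-1 by -21.8 ± 12.2 and -22.5 ± 6.24, and tRNA-Ala-TGC-4-1 by -32.7 ± 7.03 and -24.1 ± 12. The lowest CMC coverage at T20 was 20 reads, against 391 reads in the BEU libraries of the same tRNA. The CMC rates at T20 thus describe only the reads that passed the stops 3′ of it. Whether CMC itself lowered stops at T20 was not tested.

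Counting as a fall an adjusted p under 0.05 with a mean of at least 10 points lower in all 3 pairs, a rule added after the values were seen, 6 of the 100 T bases fell in old and 5 in young cells, against 0.685% of the T bases of the series in both. These were T20 of the 4 full-length tRNAs and T42 of tRNA-Ala-TGC-1-1 in both ages, and T16 of tRNA-Ala-CGC-2-1 in old cells. Falls were not counted by sets of stops. At T20 tRNA-Ala-TGC-2-1 had 15, 16 and 35 stop reads in old CMC libraries, and tRNA-Ala-TGC-4-1 had 13, 13 and 28. The falls at T20 of these 2 tRNAs may thus not be separate measurements. T16 of tRNA-Ala-CGC-2-1 had 7.50, 7.69 and 6.56% in old CMC libraries, against 19.2, 20.4 and 20.6% in old BEU libraries (change -12.8 ± 1.17 points, adjusted p = 6.37e-04). In young cells it had 10.3, 9.32 and 8.33% with CMC, against 15.2, 13.1 and 12.4% with BEU (-4.22 ± 0.551 points, adjusted p = 0.175). The age difference of these falls was not tested, since the age test covered rises only. In tRNA-Ala-TGC-2-1 and in tRNA-Ala-TGC-4-1, T16 had equal stop reads in 7 of 12 libraries and mean changes of -11.9 ± 8.90 and -12.4 ± 7.33 points in old cells, which did not pass the test (adjusted p = 0.138 and 0.136). T42 of tRNA-Ala-TGC-1-1 changed by -17.8 points in old and -13.6 in young cells, and the adjacent G43 by -21.9 and -14.1. These 2 rest on few reads. T42 had 6, 2 and 6 stop reads in old and 5, 12 and 3 in young CMC libraries, at a coverage of 25 to 201. G43 had 2, 3 and 5 in old and 5, 13 and 2 in young CMC libraries. The lowest stop count of any base was 1.

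**Figure D5:**
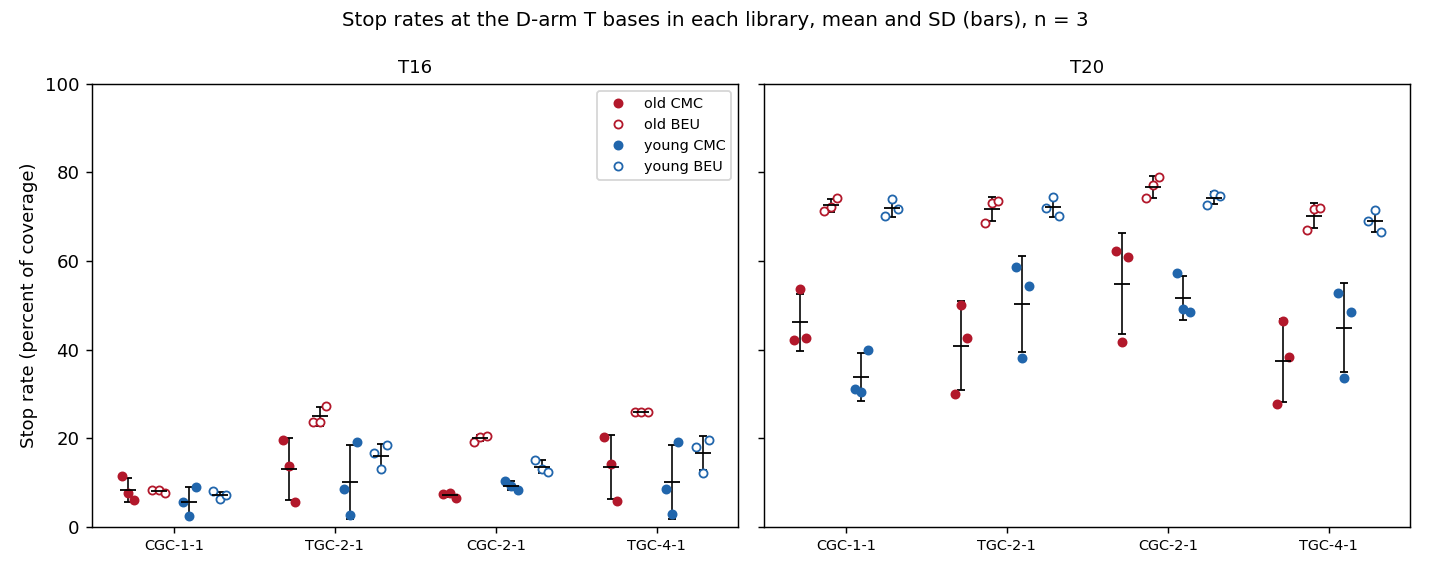
Stop rates (percent of coverage) at T16 and T20 of 4 alanine tRNAs in each library, CMC filled and BEU open, old in red and young in blue, with mean and SD bars of 3 libraries. At T20 the BEU libraries lie between 66.5 and 79.0% and the CMC libraries of the same tRNA and age below them.

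At T38 of 2 tRNAs that share their stop reads, the rise in old pairs lay above that in young pairs. The age difference, old minus young, was 14.4 ± 2.80 points at T38 of tRNA-Ala-CGC-1-1 and 14.7 ± 2.18 at T38 of tRNA-Ala-TGC-2-1 (SE), and in both every old pair lay above every young pair. In edgeR's interaction test, on the log-odds scale, neither passed over the 439 T bases tested in the series (unadjusted p = 0.0173 and 0.431, adjusted p = 0.873 and 0.999). Over the alternatives the adjusted p at CGC-1-1 ranged from 0.305 to 1. With the shared stop reads counted once and the reads that passed position 34 summed over both tRNAs, an alternative added after the values were seen, T38 had 47.5, 47.5 and 42.3% in old CMC libraries and 33.7, 35.6 and 30.8% in young CMC libraries. The rise was then 45.0 ± 3.09 points in old and 32.5 ± 2.38 in young cells, a difference of 12.5 ± 2.25 points (SE). T40 in the same reads had 44.7 ± 3.5 points in old and 47.6 ± 0.706 in young cells.

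No age difference passed at the other bases either. Of 17 T bases tested, 0 passed, against 0.0% of the 439 in the series, and 2 members and 23 bases of the series had an unadjusted p under 0.05. The other member was T38 of tRNA-Ala-CGC-2-1, with a difference of 2.21 ± 1.94 points (SE, unadjusted p = 0.0227, adjusted p = 0.873). Pairs of the ages did not overlap at 3 of the 17, against 13.0% of the bases tested in the series. Besides both T38 bases this was T54 of tRNA-Ala-TGC-4-1, 2.24 ± 0.804 points higher in old cells. Its old BEU replicate 1 was at the ceiling, with 8 stop reads against 113 in tRNA-Ala-CGC-2-1. In tRNA-Ala-CGC-2-1, with the same CMC stop reads, the pairs overlapped at T54 (7.63 to 9.82 points in old, 6.62 to 9.50 in young cells). At T55 the difference was 0.687 ± 3.26 points in tRNA-Ala-TGC-4-1 and -1.90 ± 3.90 in tRNA-Ala-CGC-2-1 (SE). At T55 of tRNA-Ala-CGC-1-1 it was 4.85 ± 9.77 points and turned to -4.66 without young replicate 2. The lowest difference was -5.36 ± 2.87 points at T40 of tRNA-Ala-TGC-4-1. The median over the 17 was 2.05 points, against 1.39 over the 439.

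Stops in BEU alone mark bases that halt reverse transcriptase without CMC, among them some methylated bases. Among the 68 member bases with a BEU rate of at least 5%, 0 differed between the ages, against 0.504% of 1190 bases in the series, and 8 of the 68 had an unadjusted p under 0.05, as did 93 of the 1190. With the test run only on bases below the ceiling in all libraries, 5 of 58 passed, against 5.6% of 893 in the series. They are named after their values were seen. C34, the first anticodon base of tRNA-Ala-CGC-1-1, had 14.5, 13.7 and 16% in old and 23.0, 23.7 and 21.6% in young BEU libraries (adjusted p = 0.00951, against 0.485 over all bases). T34 of tRNA-Ala-TGC-2-1 had the same stop reads in every BEU library except old replicate 1, where it was at the ceiling. The stops at this base and their age difference thus cannot be assigned to C34 rather than T34. In tRNA-Ala-CGC-2-1, G46 had 17, 18.5 and 17.3% in old and 26.6, 26.2 and 23.5% in young libraries (adjusted p = 0.01, against 0.140). G26, a position known for dimethylguanosine, had 4.34, 7.47 and 7.35% in old and 11.3, 9.44 and 12.2% in young libraries (0.0108, against 0.441). T16 was higher in old cells, at the values given above (0.0382, against 0.129). G57 of tRNA-Ala-TGC-1-1 had 7.93, 7.14 and 5.32% in old and 13.3, 13.0 and 10.0% in young libraries (0.0351, against 0.154). The old and young libraries did not overlap at any of the 5. G26 of tRNA-Ala-TGC-2-1 had 22.4, 27.7 and 26.6% in old and 31.5, 32.8 and 31.9% in young BEU libraries and did not pass over all bases (unadjusted p = 0.0488, adjusted p = 0.633).

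The 2 anticodons were set against each other, and both against tRNA-Ala-AGC, at each T position tested in both. The best-covered tRNA of each was used, in a two-sided exact sign-flip permutation test over the 6 pairs. Of the 31 contrasts, 0 passed after adjustment and 10 reached the smallest p that 6 pairs allow, 0.03125 (adjusted p = 0.0969). TGC, by tRNA-Ala-TGC-2-1, was below CGC, by tRNA-Ala-CGC-1-1, at T38 in 6 of 6 pairs, by -10.5 ± 1.41 points (SD). At T40 it was lower by -2.40 ± 1.04 points in 6 of 6. Below the ceiling both tRNAs count the same stop reads here, so there these differences lie in the reads that passed. Against tRNA-Ala-AGC-4-1, tRNA-Ala-TGC-2-1 differed at T55 by 25.6 ± 9.34 points, at T38 by -17 ± 6.64 and at T20 by -26.5 ± 11.4, each with the same sign in 6 of 6 pairs. At T55 and T38 the sign depends on the AGC tRNA: over the tested ones the mean rise at T55 ran from 18.4 to 65.5 points in old and 18.1 to 67.1 in young cells, and at T38 from 26.8 to 69.9 and 28.5 to 66.9, on both sides of tRNA-Ala-TGC-2-1. At T20 the 5 tested AGC tRNAs changed on average by -9.94 to 1.57 points in old and -3.51 to 2.97 in young cells. tRNA-Ala-AGC-4-1 has A at position 54 and a mean change of 0.175 points at T20, against -26.3 in tRNA-Ala-TGC-2-1.

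The abundance of a tRNA was taken as its highest coverage in a BEU library. Of the 14 tRNAs, 0 differed between the ages in edgeR, as did 0.0% of the 213 tRNAs of the series. Reads shared between near-identical tRNAs count in each, so the 14 ratios are not 14 separate measurements. In the young BEU libraries tRNA-Ala-CGC-4-1 had 769, 815 and 1181 reads, and tRNA-Ala-TGC-5-1 had 769, 817 and 1181. None of the 14 and 12 of the 213 had an unadjusted p under 0.05, and DESeq2 called 1 of the 213. The log2 ratio of old over young ranged from -0.33 to 0.49, with a median of 0.02, against 0.07 over all tRNAs. tRNA-Ala-TGC-2-1 had the highest ratio, 0.49 ± 0.41 (SE, adjusted p = 0.697), at the ceiling in 2 old and 3 young libraries. tRNA-Ala-CGC-2-1 and tRNA-Ala-TGC-4-1 had 0.00 ± 0.19 and 0.00 ± 0.21, at the ceiling in 1 old and 1 young library each. tRNA-Ala-TGC-1-1, which did not reach the ceiling, had 538 ± 22.9 CPM in old and 656 ± 58.0 CPM in young BEU libraries (SD, log2 ratio -0.29 ± 0.15, SE, adjusted p = 0.681). Fewer cells and less RNA per cell cannot be told apart in such bulk libraries.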

How the data were processed

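Reads of 12 libraries were supplied as 6 tables, each with the CMC and the BEU library of 1 age and replicate number. Per the file headers, the authors deposited the coverage of each base, a count of reads, its stop reads (also a count of reads) and the stop rate, a percent; in all tables this percent is the stop reads divided by the coverage. Bowtie2 2.3.5 and Bowtie, with the build mm10, are named in the submitters' processing notes. For reads that match several tRNAs, and for stop calling, no rule was given in the sources used here; AlkB demethylation and the CMC and BEU steps follow the labels' protocols.

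Bases with at least 20 reads in all 12 libraries were tested on stop and read-through counts with the quasi-likelihood test of edgeR 4.0.16, run in R 4.3.3, over all 213 distinct tRNAs. Benjamini-Hochberg adjustment ran over all T bases, and over all others separately. The age test was the interaction at T bases with a mean rise of at least 10 points. Abundance used TMM. Alternatives used limma 3.58.1 on log odds, DESeq2 1.42.0, other minimums, rows under 7500 reads, left-out replicates and a replicate block. The tests were checked on simulated data. All tRNAs were named, with T bases called, rising by 10 points or at positions 38, 39, 54 and 55, other called bases, and BEU stops past the test. The members and lists were chosen with earlier results of these data known.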

Additional observations from a re-analysis of the deposited data

How the results depend on the processing

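The calls of member T bases, 17 in old and 16 in young cells, depended on the bases entered and on the minimum rise. Only bases below the coverage ceiling gave 11 and 10, and all entries kept gave 27 in old, where fewer or more bases entered by construction. On the same 100 T bases, a minimum rise of 20 points gave 11 in old and 11 in young, and one of 5 points gave 24 and 20. The 2 called A, C and G bases became 1 with a coverage minimum of 50, with bases below the ceiling, with a rise of 20 points and with the replicate block, and 8 with a rise of 5 points. Without 1 replicate pair there were 1 to 3 of them. BEU age differences went to 5 below the ceiling, and the cause was not tested. The age test and abundance stayed at 0 in all alternatives run. The isoacceptor contrasts also did, but with a smallest p of 0.03125 over 31 contrasts their adjusted p could hardly pass, so this says nothing about stability. With the replicate block 13 T bases were called in old and 14 in young cells. Same-numbered CMC and BEU libraries did not deviate together (r from -0.141 to 0.044). These values cannot decide whether same-numbered libraries came from the same RNA. The block ended the calls at A37 of tRNA-Ala-CGC-1-1 in young cells (adjusted p = 0.0845), at C47 of tRNA-Ala-TGC-4-1 in old cells (0.0525), and in tRNA-Ala-CGC-4-1 at T59 in old cells (0.0705) and at T60 in old and young cells (0.110 and 0.123). Of 971 alternative values for the named bases, 881 kept direction and side of the threshold, 65 fell below it and 11 passed it. Differences with no call changed sign in 14. Leaving out 1 pair at a time gave age differences from -4.66 to 10.4 at T55 of tRNA-Ala-CGC-1-1, -3.94 to 10.8 in tRNA-Ala-TGC-2-1, -5.16 to 1.14 in tRNA-Ala-CGC-2-1 and -1.90 to 3.05 in tRNA-Ala-TGC-4-1, which was also -0.655 without old replicate 1. They ran from -0.927 to 3.21 at T38 of tRNA-Ala-TGC-4-1, and at T60 from -6.42 to 3.99 in tRNA-Ala-CGC-4-1 and -6.30 to 4.26 in tRNA-Ala-TGC-5-1. The young difference at T54 of tRNA-Ala-TGC-1-1 was -0.403 with 1 subtracted and ran from -0.275 to 0.430 without 1 pair. The cause was not tested.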
